A study of Homo sapiens with 47 samples.

Results

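The far long arm of chromosome 8 was examined in PC3 cells, an established human prostate cancer line. Of the 19535 regions called for H3K4me3Q5ser, 280 lie on chromosome 8 and start beyond 100 Mb. They were taken by position, on a chromosome arm that was proposed with earlier results of these data known, and they run from 100062388 to the end of the last region at 145066099 (GRCh38). The stretch carries MYC and CPSF1, and it is called the segment here. The comparisons are among 3 lines of PC3 cells: cells overexpressing DDC, cells overexpressing SLC6A4, and the empty vector control (EV). The enzyme DDC makes serotonin from its precursor 5-hydroxytryptophan, and SLC6A4 carries serotonin into the cell. The labels do not say whether each line is 1 clone or a pool, nor which promoter drives the constructs. Each line had 3 libraries of RNA, 3 of H3K4me3Q5ser and 3 of H3K4me3, while input DNA was counted in 3 DDC and 3 EV libraries and the SLC6A4 input was not analysed here. H3K4me3 was also profiled by CUT&Tag, which cuts chromatin at the antibody, in 1 library each of SLC6A4 cells, SLC6A4 cells with shTGM2, a short hairpin RNA named for the transglutaminase gene TGM2, and EV cells, and these libraries are used for a description alone.

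H3K4me3 is the trimethyl mark of histone H3 that sits at active and poised promoters, and H3K4me3Q5ser is the same tail with serotonin joined to the neighbouring glutamine, a reaction that transglutaminase can carry out. Input DNA is chromatin sequenced without an antibody, and its density along a chromosome follows the number of DNA copies as well as base composition, mappability and fragmentation. Gain of the long arm of chromosome 8 is frequent in prostate cancer, and MYC, a transcription factor that drives growth and ribosome production, is the gene most often discussed there. The distal end of the arm is gene dense and rich in G and C, while the stretch before it holds long genes and wide gaps.

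Depth differed by assay. The regions held 13511040 to 24765380 read pairs per H3K4me3Q5ser library, 3429714 to 5811116 per H3K4me3 library and 1394509 to 1833609 per input library. The segment itself held 311189 to 613019, 76535 to 142115 and 37148 to 46856 of these pairs. RNA libraries held 17284019 to 21745703 reads in genes. The overexpressed genes were highest in their own lines: DDC had normalised read counts of 23.9, 27.5 and 30.8 in DDC cells, against 0, 0 and 0.864 in EV cells. SLC6A4 had 87.4, 108.9 and 129.5 in SLC6A4 cells, against 0, 0 and 0.864 in EV cells. Of the markers of prostate epithelium, KRT8, KRT18 and KRT19 had 2583 or more in all 9 RNA libraries. Among the luminal secretory markers KLK3 was at 0 throughout and KLK2 had at most 1.03. The leukocyte marker PTPRC had at most 0.93 and DCN, a fibroblast gene, was at 0. ChIP and input libraries of the same group differed by little more than the sampling of reads, with a chi-square per degree of freedom of 0.992 to 1.14, against 2.7 to 13.2 for RNA. Nothing in the labels says that the ChIP replicates came from separate cultures, so p-values measure only the spread between these libraries, which may be technical. In some groups, but not all, a pair of libraries did not differ beyond the sampling noise (chi-square test at 0.05). The pair with the highest p of such a group was counted as 1 sample in the tests of density. In H3K4me3 of EV cells libraries 2 and 3 did not differ either (chi-square p = 0.0534), but only libraries 1 and 2 were joined.

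Input DNA was denser over the segment than over the other autosomes in every library. The measure was the read pairs per base pair summed over the 280 regions, divided by the same over the 18179 regions of the other autosomes. This ratio was 1.564, 1.553 and 1.562 in the 3 DDC inputs, against 1.508, 1.511 and 1.495 in the 3 EV inputs. The 6 libraries lay within a narrow band well above 1, with every DDC input above every EV input. The mean ratio was 1.527, which is 0.61 on the log2 scale. The exact two-sided sign-flip test over the 5 inputs counted gave p = 0.0625, the smallest that 5 libraries allow, and p = 0.03125 when all 6 were counted. The arm was proposed with earlier results of these data known, so these p-values are no independent support for a density above 1. The DDC and EV inputs differed by 0.05 on the log2 scale (exact permutation p = 0.1, two-sided, the smallest that 2 samples against 3 allow).

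**Figure D1:**
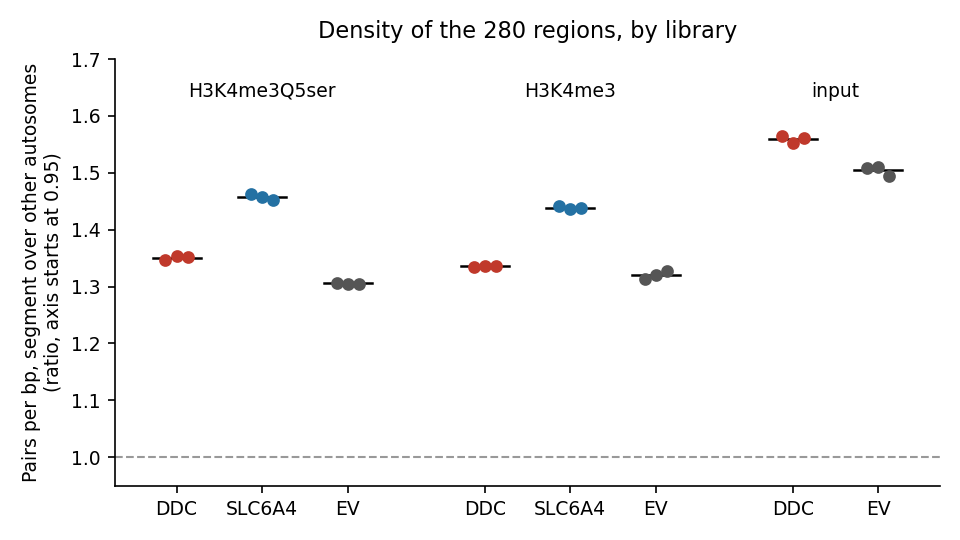
Relative density of the segment in each ChIP and input library, as read pairs per base pair over the 280 regions divided by the same over other autosomes. Each point is 1 library, lines are group means and the y axis starts at 0.95. Inputs lie at 1.495 to 1.564, and the mark libraries lie at 1.305 to 1.462, with SLC6A4 cells highest in both marks.

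Ranked among 24 units (the other autosomes, X and the parts of chromosome 8 on either side of 100 Mb), the segment was at place 2 in input density. Chromosome 14 was first with a mean ratio of 1.6, and chromosome 10 ranked just below it with 1.52. The rest of chromosome 8 stood at 1.22 as a whole and chromosome 22 was lowest at 0.538. The windows of chromosome 8 next to the segment were as dense as its own first windows: from 70 to 80, 80 to 90 and 90 to 100 Mb, DDC inputs had 2.08, 2.07 and 1.85 and EV inputs had 2.1, 2.18 and 1.82. From 60 to 70 Mb they had 1.24 in DDC cells and 1.21 in EV cells. The dense stretch thus begins before the 100 Mb border. The high input density of the segment had its like on chromosomes 14 and 10. The segment's regions hold 50.5% G and C when pooled, against 47.9% in the other autosomes. Set against regions in the same of 5 classes of GC content and 5 of length, the segment had an input ratio of 1.63 in DDC cells and 1.58 in EV cells.

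Most values just inside and just outside the 100 Mb border lay in the same range. Just inside it, the region at chr8:100140593-100162824, which holds the starts of POLR2K and SPAG1, had input ratios of 1.88 in DDC cells and 1.95 in EV cells. Just outside it, the region at chr8:99884402-99887960 had 2.05 in DDC cells and 2.01 in EV cells, and the one at chr8:99888198-99898311 had 1.63 and 1.45 in DDC and EV cells. A further region outside, at chr8:99015797-99016580, was low, with 0.517 in DDC cells and 0.533 in EV cells. The first member, a stretch of 314 bp at chr8:100062388-100062701 with 31.2% GC, had 3.92 in DDC cells and 3.83 in EV cells.

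Within the segment the input density fell towards the chromosome end. In windows of 10 Mb, DDC inputs had mean ratios of 1.88 at 100 to 110 Mb, 2.09 at 110 to 120 Mb, 1.93 at 120 to 130 Mb, 1.61 at 130 to 140 Mb and 1.29 beyond 140 Mb. EV inputs had 1.97, 2.16, 1.91, 1.55 and 1.16 in the same order of windows. The windows hold 44, 27, 40, 17 and 152 regions, so the 130 to 140 Mb value rests on fewer than 20. GC content moved with the density: it was 43.6%, 41.6%, 44.9%, 49.1% and 55.4% across the windows. Set against regions of the same GC content and length, DDC inputs had 1.64, 1.75, 1.71, 1.7 and 1.55, and EV inputs had 1.67, 1.73, 1.68, 1.66 and 1.45. The last window was the lowest in both lines here too, and the spread across windows was smaller.

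**Figure D2:**
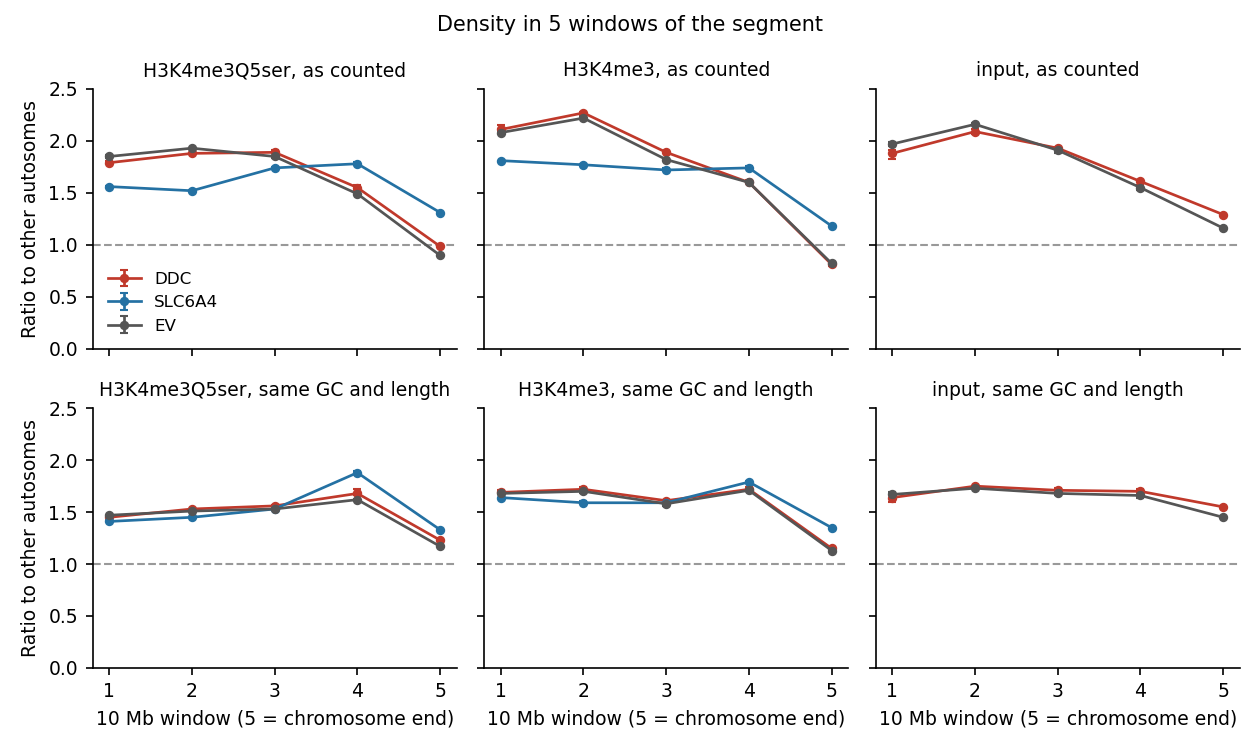
Relative density in the 5 windows of 10 Mb from 100 Mb to the chromosome end (x axis), by assay and line. The upper panels show it as counted and the lower panels against regions of the same GC content and length; points are means of 3 libraries, bars run from the lowest to the highest library. As counted, the input in the last window is 1.29 in DDC cells and 1.16 in EV cells, and H3K4me3Q5ser of SLC6A4 cells is at 1.31, above both other lines.

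H3K4me3Q5ser was likewise lowest at the end. In DDC cells its ratio was 1.79, 1.88, 1.89, 1.55 and 0.984 from the first window to the last. SLC6A4 cells had 1.56, 1.52, 1.74, 1.78 and 1.31. EV cells had 1.85, 1.93, 1.85, 1.49 and 0.897. SLC6A4 cells were lowest of the lines in the first 3 windows and highest in the last 2. For H3K4me3 the last window stood at 0.81 in DDC cells, 1.18 in SLC6A4 cells and 0.82 in EV cells, and the window from 110 to 120 Mb at 2.27, 1.77 and 2.22 in DDC, SLC6A4 and EV cells. In both marks SLC6A4 cells were the lowest line from 110 to 120 Mb and the highest beyond 140 Mb.

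Summed over the whole segment, both marks had a lower relative density than the input. The H3K4me3Q5ser ratio was 1.347, 1.353 and 1.352 in DDC cells, 1.462, 1.458 and 1.453 in SLC6A4 cells, and 1.307, 1.305 and 1.305 in EV cells. The H3K4me3 ratio was 1.334, 1.336 and 1.337 in DDC cells, 1.442, 1.436 and 1.438 in SLC6A4 cells, and 1.313, 1.321 and 1.327 in EV cells. Every mark library lay above 1 and below every input. In the lines with an input, H3K4me3Q5ser had 0.873 times the relative density of the input and H3K4me3 had 0.87 times, or -0.20 on the log2 scale for each. The exact two-sided permutation test gave p = 0.00794 for H3K4me3Q5ser (5 samples against 5) and p = 0.00794 for H3K4me3 (4 against 5), in each case the smallest possible. By window, mean H3K4me3Q5ser was below the input throughout in DDC and EV cells, but H3K4me3 was not. From 100 to 110 Mb H3K4me3 had 2.11 against an input of 1.88 in DDC cells, and 2.08 against 1.97 in EV cells. From 110 to 120 Mb it had 2.27 against 2.09, and 2.22 against 2.16. Between 120 and 140 Mb it lay on either side of the input. Beyond 140 Mb it had 0.81 against 1.29 in DDC cells, and 0.82 against 1.16 in EV cells.

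Between lines, the relative H3K4me3Q5ser density was higher in DDC than in EV cells by 0.05 (log2), higher in SLC6A4 than in EV cells by 0.16 and lower in DDC than in SLC6A4 cells by 0.11. The exact permutation p-values were 0.1, 0.333 and 0.1, the smallest that these numbers of samples allow, so the design could not reach the threshold. The H3K4me3 shifts were 0.014, 0.12 and -0.11 in the same order (exact p = 0.333 each, the smallest possible). All 3 SLC6A4 libraries lay above the 6 others in both marks. The shift depends on how regions are weighed: taking the median over regions in place of the sum, H3K4me3Q5ser stood at 1.209, 1.258 and 1.207 in DDC cells, 1.137, 1.132 and 1.148 in SLC6A4 cells and 1.114, 1.161 and 1.136 in EV cells. SLC6A4 cells then lay within the EV range and below DDC cells. On that median the differences of SLC6A4 from EV and of DDC from SLC6A4 changed sign. Set against regions of the same GC content and length, H3K4me3Q5ser had 1.41 in SLC6A4 cells and 1.36 in EV cells, and H3K4me3 had 1.49 and 1.42 in SLC6A4 and EV cells, which are smaller shifts. Over the regions beyond 120 Mb alone they were larger, with 1.43 in SLC6A4 cells and 1.13 in EV cells for H3K4me3Q5ser, and 1.33 and 1.08 in SLC6A4 and EV cells for H3K4me3.

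The 280 regions differ in kind. A region counts as a promoter where it lies within 1000 bp of a transcription start (GENCODE 44). By that rule 116 (41.4%) are promoters of protein-coding genes, 63 (22.5%) lie in introns, 43 (15.4%) overlap exons, 33 (11.8%) are intergenic, 19 (6.79%) are promoters of long noncoding RNAs and 6 (2.14%) lie in the bodies of such genes. Coding promoters had a median H3K4me3Q5ser ratio of 1.31, an H3K4me3 ratio of 1.44 and an input ratio of 1.57 in EV cells. Introns had 0.524, 0.538 and 1.63, so the input was as dense there while both marks were lower. Intergenic regions had 0.662 for H3K4me3Q5ser, 1.07 for H3K4me3 and 2.09 for the input.

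Across the 280 regions in EV cells the input density fell with GC content (Spearman rho = -0.779) and was less tied to length (rho = -0.215). Input correlated with H3K4me3 at rho = 0.69 and with H3K4me3Q5ser at rho = 0.55, and the marks correlated with each other at rho = 0.853. These correlations are over regions that share libraries, base composition and neighbours, and they are given as a description.

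The regions with the most H3K4me3Q5ser in EV cells lay at promoters and in exons, with an exception. The promoter of EXT1, which polymerises heparan sulfate, had 3.97, 4 and 4.04 in DDC cells, 4.28, 4.29 and 4.23 in SLC6A4 cells and 4.07, 4.18 and 4.13 in EV cells. Regions in RNF19A, at RNF139 (both ubiquitin ligase genes) and in TRPS1, a GATA-type repressor, had EV values of 2.66 to 2.93. The exception is an intergenic stretch of 171 bp at chr8:143669446-143669616. Its H3K4me3Q5ser ratio was 6.82, 7.92 and 6.71 in DDC cells, 9.23, 8.57 and 8.22 in SLC6A4 cells and 6.63, 6.08 and 6.71 in EV cells. Its input ratio was higher still, 27.8, 21.3 and 22.9 in DDC cells and 24.6, 18.9 and 24 in EV cells. H3K4me3Q5ser was below the input there in each line with an input. The lowest EV values, 0.178 to 0.265, were in an intron of EPPK1, an exon of PLEC and an intron of SPATC1, all in the last window.

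Line by line, the segment's regions were tested within edgeR's quasi-likelihood fit over the whole table, with Benjamini-Hochberg adjustment over all regions and a threshold of 0.05. For H3K4me3Q5ser most regions of the whole table passed. In DDC against EV, 171 of 280 members were called, where 61.2% of all regions were. Of these, 109 were up and 62 down, beside 29.7% up and 31.5% down over all regions. In SLC6A4 against EV 239 were called (background 82.5%), 139 up (background 41.0%) and 100 down (background 41.5%). In DDC against SLC6A4 227 were called (background 76.9%), 102 up (background 38.0%) and 125 down (background 38.9%). The members' shares called in either direction, 61.1%, 85.4% and 81.1%, are near the background in all 3 comparisons. By direction, more members than background were up and fewer were down in DDC against EV and in SLC6A4 against EV. Changes of at least 2-fold were found in 3, 28 and 16 members, against backgrounds of 1.84%, 10.2% and 5.37%. The 3 in DDC against EV are the promoter and an intron of GRHL2 and an exon of ZFPM2 (chr8:105318972-105319908), the last chosen after its value was seen.

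For H3K4me3, 277 members passed the filter on low counts. In DDC against EV 63 were called (background 17.6%), 33 up (background 8.24%) and 30 down (background 9.39%). The count was 38 without EV library 2, 27 with DESeq2 and, with the GC trend taken out, 44 with 28 up and 16 down. In SLC6A4 against EV 200 were called (background 61.5%), 120 up (background 31.9%) and 80 down (background 29.6%). In DDC against SLC6A4 191 were called (background 60.2%), 81 up (background 29.3%) and 110 down (background 30.9%), and 115 with the GC trend taken out. Changes of at least 2-fold were 1, 19 and 25 (backgrounds 0.306%, 5.81% and 4.21%). The single one in DDC against EV, chosen after its value was seen, is a region of 201 bp at the start of MAPK15, with 3, 5 and 6 pairs in DDC cells and 6, 12 and 15 in EV cells.

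Input itself differed between DDC and EV cells at 27 of 273 members (background 6.3%), 18 up (background 2.69%) and 9 down (background 3.61%), with 0 at 2-fold or more (background 0.35%). Leaving out any single library gave 14 to 24. With the GC trend taken out, 15 were up and 4 down. All 18 rises lay beyond 140 Mb and 8 of the 9 falls lay before 120 Mb. When the input was put into the fit, so that H3K4me3Q5ser in DDC against EV was read relative to the input, 16 members were called (8 up, 8 down), in place of 171. H3K4me3 had 6 (2 up, 4 down), in place of 63. The input libraries are the shallowest of the 3 assays, and the part of depth in this drop was not tested.

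Direction changed along the segment. In SLC6A4 against EV, H3K4me3Q5ser rose at 10 and fell at 57 of the 71 regions from 100 to 120 Mb, rose at 21 and fell at 28 of the 57 regions from 120 to 140 Mb, and rose at 108 and fell at 15 of the 152 regions beyond 140 Mb. Over all regions 41.0% were up and 41.5% down. The median log2 changes were -0.39, -0.10 and 0.55. H3K4me3 in the same comparison rose at 5 and fell at 50, rose at 12 and fell at 26, and rose at 103 and fell at 4 of the tested regions in those stretches. For DDC against EV the H3K4me3Q5ser counts were 10 up and 36 down, 18 up and 16 down, and 81 up and 10 down, with median log2 changes of -0.08, 0.01 and 0.17. H3K4me3 in DDC against EV had 12 up and 12 down, 7 up and 4 down, and 14 up and 14 down. Over all regions H3K4me3Q5ser was up at 29.7% and down at 31.5% in DDC against EV. H3K4me3 was up at 31.9% and down at 29.6% of all regions in SLC6A4 against EV, and at 8.24% and 9.39% in DDC against EV. With the genome-wide GC trend taken out, H3K4me3Q5ser in SLC6A4 against EV had 25 up and 37 down from 100 to 120 Mb, 20 up and 28 down from 120 to 140 Mb and 114 up and 11 down beyond. H3K4me3 then had 11 up and 26 down, 9 up and 20 down, and 85 up and 9 down. In DDC against EV, H3K4me3Q5ser then had 17 up and 31 down, 20 up and 15 down, and 86 up and 7 down, and H3K4me3 had 11 up and 9 down, 5 up and 6 down, and 12 up and 1 down. The DDC and SLC6A4 comparisons share the EV libraries.

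GC content moved with these differences. The median GC content of the 3 stretches is 42.4%, 45.3% and 52.3%. The log2 change of H3K4me3Q5ser in SLC6A4 against EV rose with GC over the members (Spearman rho = 0.75) about as it did over all regions (rho = 0.71), and that of DDC against SLC6A4 fell with it (rho = -0.82 over members and -0.766 over all). DDC against EV had hardly any steady rise or fall with GC for H3K4me3Q5ser (rho = 0.0524 over members and 0.12 over all). By 5 classes of GC content, from lowest to highest, its medians were 0.03, 0.07, 0.11, 0.05 and 0.06 in members. In all other regions they were -0.11, -0.01, 0.05, 0.06 and -0.02. H3K4me3 in DDC against EV fell with GC (rho = -0.358 over members and -0.147 over all). Within 5 classes of GC content, the members' median log2 change in SLC6A4 against EV was -0.39, -0.02, 0.21, 0.31 and 0.76, from the lowest class to the highest, against -0.68, -0.21, 0.04, 0.27 and 0.50 in all other regions. The members lay above regions of like GC in each class. With the genome-wide GC trend taken out, the medians of the 3 stretches became -0.13, -0.08 and 0.32. The medians ran in the same direction along the segment, at a smaller size. The part of base composition in these differences was not tested beyond that fit.

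**Figure D3:**
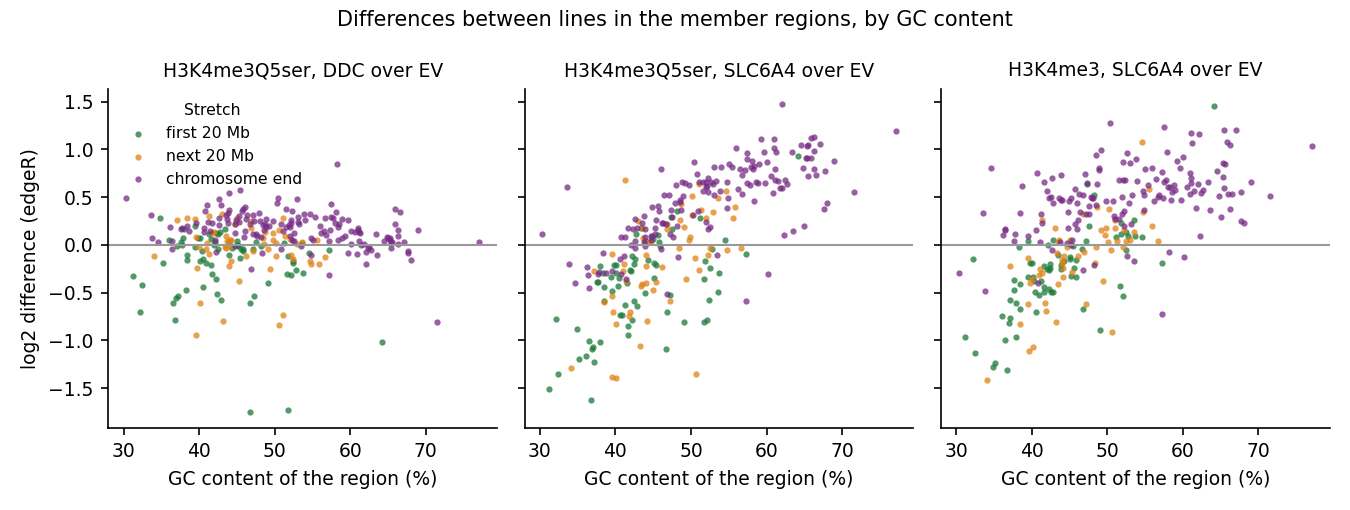
Log2 difference of each of the 280 regions (y axis, edgeR; 277 for H3K4me3) against its GC content in percent (x axis), for H3K4me3Q5ser in DDC over EV, H3K4me3Q5ser in SLC6A4 over EV and H3K4me3 in SLC6A4 over EV, coloured by stretch. The SLC6A4 panels climb with GC (rho = 0.75 and 0.649), the DDC panel does not (rho = 0.0524), and its lowest points are the GRHL2 regions at -1.76 and -1.73.

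The region that changed most in DDC cells was the promoter of GRHL2, a transcription factor that maintains epithelial identity. At chr8:101490717-101493409 (46.7% GC) its H3K4me3Q5ser ratio was 0.264, 0.304 and 0.292 in DDC cells, 0.451, 0.404 and 0.456 in SLC6A4 cells and 0.915, 0.961 and 1.03 in EV cells. The 3 lines did not overlap, with DDC lowest and EV highest. The fall was -1.76 on the log2 scale in DDC against EV (SE 0.0753, edgeR adjusted p = 1.05e-41) and -1.10 in SLC6A4 against EV (SE 0.0609, adjusted p = 1.61e-33). H3K4me3 at this promoter was 1.52, 1.71 and 1.66 in DDC cells, 1.9, 1.94 and 1.9 in SLC6A4 cells and 2.02, 2.07 and 1.72 in EV cells, and the input was 1.99, 2 and 1.52 in DDC cells and 1.7, 1.63 and 2.15 in EV cells. DDC cells lay below both other lines in H3K4me3, and the lines overlapped in input. The H3K4me3 change was -0.24 in DDC (edgeR adjusted p = 0.0348; 0.598 relative to input) and -0.05 in SLC6A4 cells (adjusted p = 0.623). Relative to input the H3K4me3Q5ser change in DDC cells was -1.74 (edgeR adjusted p = 2.44e-20). The adjoining intron of GRHL2 at chr8:101493579-101495705 fell by 1.73 in DDC and by 0.81 in SLC6A4 cells. Of 6 epithelial markers, EPCAM, CDH1 and KRT19 were lowest in DDC cells and highest in EV cells, with no overlap. EPCAM had normalised counts of 35.3, 23.1 and 20.9 in DDC cells, 68.8, 81.7 and 71.7 in SLC6A4 cells and 96.7, 95.8 and 108 in EV cells, and CDH1, the epithelial cadherin, had 2.2 to 5.97 in DDC cells, 20.9 to 26 in SLC6A4 cells and 39.2 to 65.8 in EV cells. KRT19 had 9220 to 10910 in DDC cells, 12890 to 15380 in SLC6A4 cells and 15990 to 18330 in EV cells. KRT8 had 3920 to 4964 in DDC cells, 6667 to 7860 in SLC6A4 cells and 5686 to 7228 in EV cells, so that SLC6A4 and EV overlapped, and KRT18 overlapped in all lines, with 2983 to 3799 in DDC cells, 2583 to 3862 in SLC6A4 cells and 3491 to 5955 in EV cells. KRT5 was at 2.2 or less apart from 551.6 in SLC6A4 library 1 and 315.8 in EV library 2. Of the markers of other cells, PECAM1 had 66.6 to 87.3 in DDC cells, 34.4 to 50.8 in SLC6A4 cells and 211 to 235 in EV cells, COL1A1 had 9.35 to 46.65, COL1A2 and VWF had at most 2.18, and CD68 had 109.8 to 172.1. Their part in the results at GRHL2 and the other promoters was not tested. RNA of GRHL2 was below the filter and was not tested: its normalised counts were 0, 1.1 and 0.994 in DDC cells, 2.79, 0.908 and 5.98 in SLC6A4 cells and 8.23, 10.9 and 6.05 in EV cells.

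The promoters of TNFRSF11B and HAS2 had less H3K4me3Q5ser in both lines than in EV cells. TNFRSF11B encodes osteoprotegerin, the decoy receptor that restrains osteoclasts. Its promoter at chr8:118950028-118954799 had 0.799, 0.812 and 0.857 in DDC cells, 0.768, 0.759 and 0.735 in SLC6A4 cells and 1.18, 1.17 and 1.18 in EV cells, with both lines below every EV library. The log2 change was -0.52 in DDC (SE 0.0395, edgeR adjusted p = 1.57e-22) and -0.59 in SLC6A4 cells (SE 0.0366, adjusted p = 9.2e-30). H3K4me3 there differed by 0.09 in DDC (edgeR adjusted p = 0.328) and -0.24 in SLC6A4 cells (adjusted p = 0.000116). Its RNA was below the filter too, at 5.19, 3.3 and 0.994 in DDC cells, 8.37, 7.26 and 7.97 in SLC6A4 cells and 10.3, 8.71 and 12.1 in EV cells.

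HAS2 is the main hyaluronan synthase of many mesenchymal and tumour cells. Its promoter at chr8:121636306-121642811 had 1.72, 1.69 and 1.67 in DDC cells, 1.64, 1.64 and 1.61 in SLC6A4 cells and 2.2, 2.21 and 2.22 in EV cells. Both lines lay below EV, with a log2 change of -0.38 in DDC (edgeR adjusted p = 6.3e-27) and -0.38 in SLC6A4 cells (adjusted p = 6.81e-31). Relative to input the DDC change was -0.50 (edgeR adjusted p = 2.67e-06). H3K4me3 there differed by -0.09 in DDC (edgeR adjusted p = 0.204) and fell by 0.29 in SLC6A4 cells (adjusted p = 3.35e-09).

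Relative to H3K4me3, the serotonylated mark changed at 68 members in DDC against EV (background 15%), by the interaction of mark and line in edgeR. Of these 36 were up (background 5.15%) and 32 down (background 9.88%). In SLC6A4 against EV it changed at 100 (background 29.2%), 50 up (background 14.5%) and 50 down (background 14.7%). Scaling by library size alone put the median of all regions at -0.10 in the SLC6A4 comparison, against -0.01 with TMM, and gave 31 up and 84 down. Changes of 2-fold or more numbered 6 and 3 (backgrounds 0.635% and 1.59%), both GRHL2 regions among them in each line. The other one in SLC6A4 cells, chosen after its value was seen, is intergenic at chr8:144918446-144919017 (-1.21). In DDC cells 0 regions rose and 23 fell before 120 Mb, and 33 rose and 2 fell beyond 140 Mb. With the GC trend taken out these were 3 up and 14 down, and 19 up and 1 down. The GRHL2 promoter gave -1.51 in DDC (edgeR adjusted p = 1.97e-27) and -1.05 in SLC6A4 cells (adjusted p = 6.01e-20), and TNFRSF11B gave -0.60 and -0.34. Promoters of ANGPT1, an angiopoietin, and of EBAG9 fell by 0.55 and 0.40 in DDC cells, and that of CSMD3 by 0.38 in DDC and 0.56 in SLC6A4 cells.

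Rises in DDC cells were smaller. The shared promoter of WASHC5, a subunit of the WASH complex, and NSMCE2, a SUMO ligase of the SMC5/6 complex, lies at chr8:125083943-125098293. Its H3K4me3Q5ser ratio was 2.18, 2.23 and 2.28 in DDC cells, 2.07, 2.01 and 2.06 in SLC6A4 cells and 1.81, 1.81 and 1.75 in EV cells, with no overlap among lines. The log2 change in DDC was 0.32 for H3K4me3Q5ser (edgeR adjusted p = 4.33e-32) and 0.32 for H3K4me3 (adjusted p = 2.19e-13), and relative to input 0.33 (adjusted p = 2.84e-05) and 0.32 (adjusted p = 0.00957). The input there did not pass (0.02, edgeR adjusted p = 0.919).

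At the shared promoter of MRPL13, a mitochondrial ribosomal protein, and MTBP (chr8:120438070-120452422) the lines went opposite ways: 2.99, 2.97 and 3.02 in DDC cells, 2.02, 2 and 1.98 in SLC6A4 cells, and 2.48, 2.54 and 2.5 in EV cells. H3K4me3Q5ser rose by 0.26 in DDC and fell by 0.27 in SLC6A4 cells. Its GC content is low, 37.1%, and with the GC trend taken out the change was 0.44 in DDC and 0.50 in SLC6A4 cells, so the sign in SLC6A4 cells and that of the difference between DDC and SLC6A4 turned.

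In SLC6A4 cells the rises with the smallest adjusted p lay in the GC-rich end. The broad region at chr8:144401233-144465690 (64458 bp, 60.6% GC) holds the starts of CPSF1, a subunit of the complex that cleaves messenger RNA 3′ ends, and of SLC39A4, VPS28, TONSL and KIFC2. H3K4me3Q5ser there was 1.14, 1.15 and 1.15 in DDC cells, 1.65, 1.67 and 1.65 in SLC6A4 cells and 1.04, 1.04 and 1.05 in EV cells. H3K4me3 was 0.705, 0.727 and 0.728 in DDC cells, 1.2, 1.2 and 1.21 in SLC6A4 cells and 0.747, 0.779 and 0.797 in EV cells. SLC6A4 cells stood above both other lines in both marks. The log2 change in SLC6A4 was 0.72 for H3K4me3Q5ser and 0.60 for H3K4me3, and 0.19 and 0.15 with the GC trend taken out. In DDC cells the values were 0.14 for H3K4me3Q5ser and -0.10 for H3K4me3 (0.02 with the GC trend taken out, so that sign turned), with the input at 0.11 (edgeR adjusted p = 0.0439).

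The region with PUF60, a splicing and transcription factor, and SCRIB, a polarity scaffold, at chr8:143806551-143836577 (61.0% GC) had 0.73, 0.735 and 0.729 in DDC cells, 1.31, 1.27 and 1.28 in SLC6A4 cells and 0.682, 0.657 and 0.641 in EV cells. The log2 change of H3K4me3Q5ser in SLC6A4 was 1.02 (SE 0.0165, edgeR adjusted p = 1.5e-83), and 0.48 with the GC trend taken out. Regions at EXOSC4 and CYC1 (0.65), PLEC and GRINA (0.82), MFSD3 and RECQL4 (0.80) and RPL8 (0.67) rose in the same comparison. With the GC trend taken out they stood at 0.19, 0.34, 0.22 and 0.34. All of these lie beyond 140 Mb and each kept its direction.

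MYC's promoter at chr8:127733702-127744064 (50.1% GC) carried more H3K4me3Q5ser in SLC6A4 cells and hardly differed between DDC and EV cells. Its ratio was 2.63, 2.63 and 2.7 in DDC cells, 3.59, 3.58 and 3.57 in SLC6A4 cells and 2.63, 2.59 and 2.62 in EV cells. The SLC6A4 libraries stood apart from both other lines. The log2 change was 0.51 in SLC6A4 (SE 0.0146, edgeR adjusted p = 2.45e-59; 0.31 with the GC trend taken out) and 0.02 in DDC cells (adjusted p = 0.236). H3K4me3 at MYC was 2.04, 2.1 and 2.01 in DDC cells, 2.22, 2.29 and 2.34 in SLC6A4 cells and 2.23, 2.28 and 2.07 in EV cells, with SLC6A4 and EV overlapping (0.03, edgeR adjusted p = 0.515). Input at MYC was 1.94, 1.68 and 1.97 in DDC cells and 1.93, 2.03 and 1.91 in EV cells, which is above the 1.527 of the segment in each library. The serotonylated mark relative to H3K4me3 gave 0.48 in SLC6A4 cells (edgeR adjusted p = 1.76e-24) and 0.13 in DDC cells (adjusted p = 0.0342).

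SQLE, which encodes squalene epoxidase of cholesterol synthesis, had a promoter region at chr8:124991667-125009304 with 41.3% GC that rose in both lines. H3K4me3Q5ser was 1.65, 1.64 and 1.62 in DDC cells, 2.06, 2.02 and 2.07 in SLC6A4 cells and 1.29, 1.35 and 1.34 in EV cells, with no overlap. The log2 change was 0.31 in DDC and 0.68 in SLC6A4 cells, or 0.36 and 1.05 with the GC trend taken out. H3K4me3 rose by 0.30 and 0.26, and input was 1.96, 1.96 and 1.97 in DDC cells against 1.67, 1.83 and 1.84 in EV cells (0.14, adjusted p = 0.0844, edgeR).

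**Figure D4:**
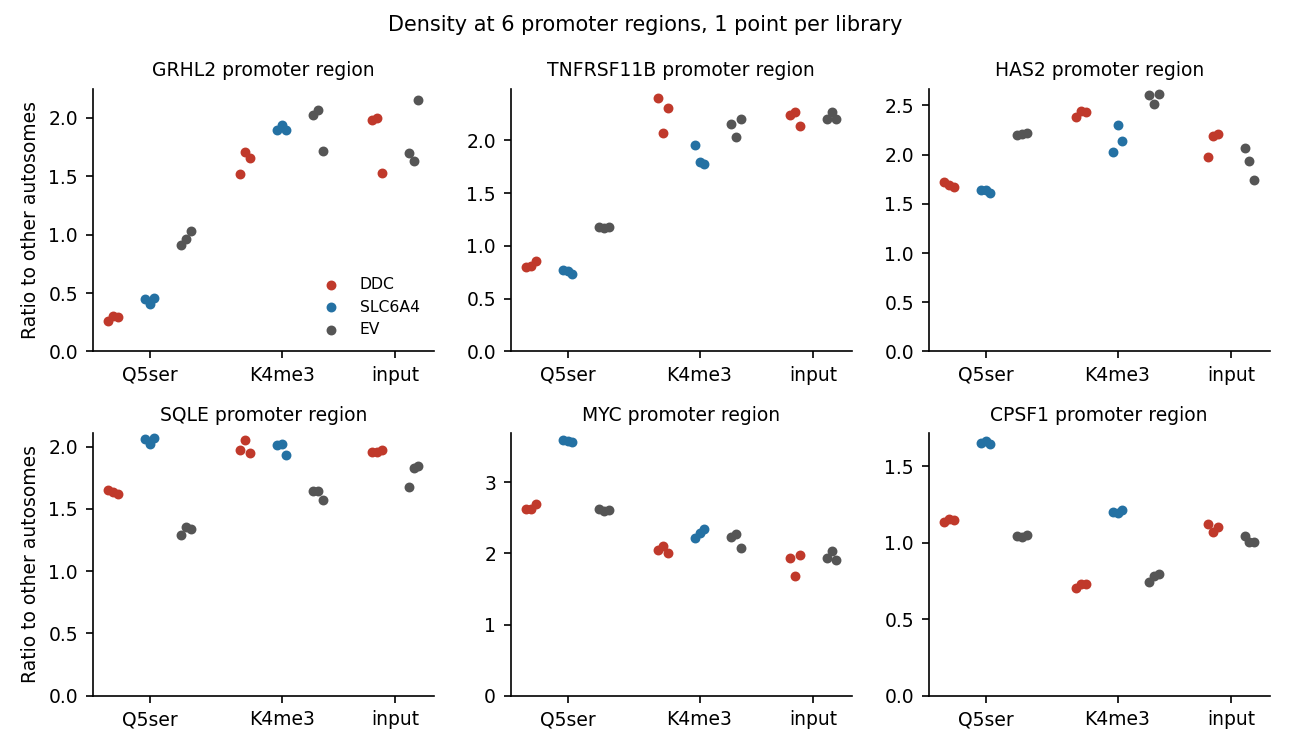
Relative density (y axis, ratio to other autosomes, from 0) of H3K4me3Q5ser (Q5ser), H3K4me3 (K4me3) and input at 6 promoter regions; each point is 1 library, coloured by line. At GRHL2 the H3K4me3Q5ser points are at 0.264 to 0.304 in DDC cells and 0.915 to 1.03 in EV cells, and at MYC the SLC6A4 points stand at 3.57 to 3.59.

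Among the falls in SLC6A4 cells, the exon of OXR1, an oxidation resistance gene, at chr8:106725873-106729516 (32.4% GC) had 1.79, 1.78 and 1.81 in DDC cells, 0.901, 0.897 and 0.92 in SLC6A4 cells and 2.4, 2.49 and 2.33 in EV cells. The log2 change was -1.35 in SLC6A4 and -0.42 in DDC cells, and -0.13 and -0.01 with the GC trend taken out. Its input also differed, at 2.18, 2.1 and 2.38 in DDC cells against 2.75, 2.77 and 3.17 in EV cells (-0.40, edgeR adjusted p = 0.00258). The promoter of RAD21, a cohesin subunit (37.9% GC), fell by 0.22 in H3K4me3Q5ser and by 0.61 in H3K4me3. With the GC trend taken out it stood at 0.47 in H3K4me3Q5ser, so that sign turned, and at -0.08 in H3K4me3. The promoter of EBAG9 fell by 0.79 and stood at -0.50 with the GC trend taken out.

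Several distal promoters showed the input moving with the marks. C8orf33, at the end of the annotated segment (chr8:145052397-145066099), had an input of 1.96, 1.88 and 1.89 in DDC cells and 1.39, 1.55 and 1.72 in EV cells, with DDC above all EV libraries (0.29, edgeR adjusted p = 0.00018). H3K4me3Q5ser there was 1.32, 1.31 and 1.35 in DDC cells, 1.67, 1.72 and 1.69 in SLC6A4 cells and 1.03, 0.99 and 1.01 in EV cells, a rise of 0.39 in DDC and 0.80 in SLC6A4 cells. Relative to input the DDC value was 0.13 (edgeR adjusted p = 0.266). The region of ZNF16, a zinc-finger gene, had an input of 1.67, 1.73 and 1.83 in DDC cells and 1.39, 1.45 and 1.45 in EV cells (0.28, adjusted p = 4.48e-05), and H3K4me3Q5ser rose by 0.31 there, with 0.06 relative to input (edgeR adjusted p = 0.661). Before 110 Mb the input ran the other way at YWHAZ, a phosphoserine-binding adaptor (-0.21, edgeR adjusted p = 0.0123), and at ZNF706 (-0.22, adjusted p = 0.00372). The part of input in the mark differences of SLC6A4 cells was not tested, since the input of that line was not analysed here.

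RNA was read for 727 genes of the segment, of which 220 are protein-coding. In all 9 libraries 322 had no read, and 178 passed the filter for at least 1 comparison, 140 of them protein-coding. In bulk samples, fewer cells that express a gene and less RNA per cell cannot be told apart. Coding genes at 1 TPM or more made up 33.6% to 38.2% in DDC cells, 37.7% to 39.1% in SLC6A4 cells and 40.5% to 41.8% in EV cells. That is above the 27.7% to 30.3% of the other autosomes and the 20.5% to 23.8% of chromosome 8 up to 100 Mb. DDC cells were below EV cells there too. On the other autosomes they had 27.7% to 29.3%, against 29.4% to 30.3% in EV cells. On the rest of chromosome 8 they had 20.5% to 22.3%, against 22.55% to 23.8%. The median TPM of the expressed coding genes was 4.55 to 6.05, against 4.28 to 4.48 on the other autosomes and 3.18 to 3.89 on the rest of chromosome 8. In rank of median TPM, on the mean of the 9 libraries, the segment was at place 10 of 24 units, against place 2 in input density.

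Of the genes tested by limma, 33 of 172 changed in DDC against EV (background 17.4%), 11 up (background 8.94%) and 22 down (background 8.41%). In SLC6A4 against EV 49 of 175 changed (background 19.4%), 21 up (background 10.2%) and 28 down (background 9.28%). In DDC against SLC6A4 34 of 177 changed (background 13.2%), 18 up (background 6.47%) and 16 down (background 6.74%). The members' shares called in either direction were 19.2%, 28% and 19.2%, near the background in the first comparison and above it in the others. Without EV library 2 the count in DDC against EV was 20. In edgeR scaled by library size alone, where the median of all genes was -0.12, it was 7 up and 35 down, and in DDC against SLC6A4 12 up and 19 down. Changes of 2-fold or more numbered 10, 13 and 2 (backgrounds 2.91%, 3.17% and 2.17%), the last being ST3GAL1 and IQANK1. The members' median log2 change was -0.06 in DDC against EV, 0.03 in SLC6A4 against EV and -0.01 in DDC against SLC6A4, beside 0.01, 0.01 and 0.00 over all genes tested. In the stretch from 120 to 140 Mb 19 of 47 genes changed in SLC6A4 cells (6 up, 13 down) and 12 of 47 in DDC cells (1 up, 11 down). From 100 to 120 Mb 10 of 47 changed in SLC6A4 cells (4 up, 6 down) and 9 of 47 in DDC cells (3 up, 6 down). Beyond 140 Mb 20 of 81 changed in SLC6A4 cells (11 up, 9 down) and 12 of 78 in DDC cells (7 up, 5 down).

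HAS2, the hyaluronan synthase, had the least RNA in DDC cells. Its normalised count was 10.4, 17.6 and 14.9 in DDC cells, 27.9, 26.3 and 23.9 in SLC6A4 cells and 89.5, 76.2 and 88.1 in EV cells. The 3 lines did not overlap. The log2 change was -2.50 in DDC (SE 0.23, limma adjusted p = 1.78e-08) and -1.66 in SLC6A4 cells (SE 0.17, adjusted p = 1.76e-06).

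Genes of epithelial adhesion, polarity and surface had 8 of 16 listed members tested. In DDC against EV 1 rose and 4 fell, in SLC6A4 against EV 1 rose and 3 fell, and the medians were -0.58 and -0.33. For this and the other lists, each of few genes, the shares over all genes were 8.94% up and 8.41% down in DDC against EV and 10.2% up and 9.28% down in SLC6A4 against EV. MAL2, a transport protein of the apical membrane, had 133, 79.2 and 97.5 in DDC cells, 119.1, 78.05 and 70.7 in SLC6A4 cells and 210.9, 230.9 and 197 in EV cells, so that both lines lay below EV (-1.06, limma adjusted p = 2.07e-05, and -1.28, adjusted p = 1.24e-05). PTK2, the focal adhesion kinase, fell by 0.60 in DDC and 0.63 in SLC6A4 cells. PLEC, the plakin that links intermediate filaments to junctions, rose by 0.52 in DDC and 0.47 in SLC6A4 cells, the SLC6A4 call being lost without SLC6A4 library 2. LY6E, a surface protein, fell by 0.37 in DDC cells, a call lost without DDC library 1. Outside the lists, IQANK1 fell by 1.07 in DDC cells.

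Signalling and turnover genes had all 12 listed members tested, with 0 up and 1 down in DDC against EV and 0 up and 4 down in SLC6A4 against EV (medians -0.20 and -0.18). NDRG1, a stress-induced suppressor of metastasis, had 153.7, 169.4 and 146.2 in DDC cells, 102.3, 101.6 and 113.6 in SLC6A4 cells and 263.3, 274.4 and 331.8 in EV cells. The lines did not overlap, and the change was -0.88 in DDC (limma adjusted p = 9.4e-06) and -1.44 in SLC6A4 cells (adjusted p = 4.76e-08). TRIB1, a pseudokinase that directs protein turnover, fell by 0.95 in SLC6A4 cells, with -0.12 in DDC cells (limma adjusted p = 0.603), and PTP4A3, a phosphatase, by 1.47 in SLC6A4 cells.

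ST3GAL1 transfers sialic acid to O-linked glycans. It had 2913, 3155 and 3010 in DDC cells, 1409, 1466 and 1426 in SLC6A4 cells and 3580, 3559 and 3556 in EV cells. SLC6A4 cells stood far below both others (-1.31 against EV, SE 0.05, limma adjusted p = 4.5e-12), and DDC cells slightly below EV (-0.23, adjusted p = 0.0302, no longer under the threshold without DDC library 1 or any single EV library).

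Lipid and metabolism genes had 1 up and 0 down of 9 tested in DDC against EV, and 4 up and 0 down of 8 in SLC6A4 against EV (backgrounds 8.94% and 10.2% up), with medians of 0.07 and 0.19. SQLE had 383.3, 275 and 387.9 in DDC cells, 736.7, 599 and 653.6 in SLC6A4 cells and 314.8, 414.9 and 281.7 in EV cells. Its SLC6A4 values lay above all others (0.99, limma adjusted p = 7.29e-06), while DDC and EV overlapped (0.05, adjusted p = 0.831). SLC52A2, a riboflavin transporter, rose by 0.53 in each line, and NDUFB9, a subunit of respiratory complex I, by 0.19 in SLC6A4 cells.

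Genome maintenance genes had 3 up and 0 down of 9 in each line against EV (backgrounds 8.94% up in DDC and 10.2% up in SLC6A4), with medians of 0.05 and 0.12. DSCC1, which acts in sister chromatid cohesion during DNA replication, had 170.4, 176 and 190.9 in DDC cells, 178.6, 160.6 and 130.5 in SLC6A4 cells and 106, 98 and 105.4 in EV cells. Both lines lay above EV (0.79, limma adjusted p = 7.41e-05, and 0.59, adjusted p = 0.00297). ATAD2, a bromodomain ATPase, rose by 0.32 in SLC6A4 cells, a call lost with DESeq2 and without SLC6A4 library 1, SLC6A4 library 3 or EV library 3. NSMCE2 rose by 0.27 in DDC cells, a call lost with DESeq2 and without DDC library 2, DDC library 3 or any single EV library.

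Of the MYC locus, 8 of 12 listed genes were tested: 0 up and 1 down in DDC against EV, and 2 up and 2 down in SLC6A4 against EV (medians -0.30 and -0.31). MYC had 276.3, 333.3 and 252.6 in DDC cells, 318.1, 236 and 228.2 in SLC6A4 cells and 312.7, 396.4 and 308.4 in EV cells. The lines overlapped. Its log2 change was -0.23 in DDC (limma adjusted p = 0.189) and -0.38 in SLC6A4 cells (adjusted p = 0.0359). The SLC6A4 call was lost without SLC6A4 library 2, SLC6A4 library 3 or EV library 2, and its adjusted p ranged over the alternatives from 0.00283 to 0.176. ASAP1, a GTPase activator, rose by 0.57 in SLC6A4 cells, and LRATD2 fell by 0.66 in DDC and 0.98 in SLC6A4 cells, the DDC call being lost with DESeq2 and without DDC library 1, DDC library 3, EV library 1 or EV library 2.

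CPSF1 and other genes of messenger RNA 3′ ends and binding had 1 up and 0 down of 7 in DDC, and 2 up and 0 down of 7 in SLC6A4 cells (medians 0.10 and 0.23). CPSF1 had 305.4, 295.9 and 317.3 in DDC cells, 368.3, 282.3 and 347.7 in SLC6A4 cells and 302.4, 278.8 and 276.5 in EV cells, all overlapping (0.10, limma adjusted p = 0.533 in DDC, and 0.21, adjusted p = 0.153 in SLC6A4). PABPC1, which binds poly(A) tails, rose by 0.30 in SLC6A4 cells (adjusted p = 0.000219), and PUF60 rose by 0.36 in DDC and 0.37 in SLC6A4 cells, the DDC call being lost without EV library 2. Translation genes had 0 up and 1 down of 7 in DDC and 2 up and 0 down of 7 in SLC6A4 cells: EEF1D rose by 0.29 and RPL8 by 0.22 in SLC6A4 cells, and EIF3H fell by 0.27 in DDC cells, a call lost with the GC trend taken out and without DDC library 2 or EV library 3.

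Transcription machinery and stress factors gave 1 up and 1 down of 10 in DDC, and 1 up and 2 down of 10 in SLC6A4 cells (medians -0.04 and 0.05). KLF10, an early TGF-beta response factor, had 796.7, 874.6 and 900 in DDC cells, 559, 606.3 and 633.7 in SLC6A4 cells and 578.1, 652.3 and 577.1 in EV cells, with DDC above both others (0.51, limma adjusted p = 0.000228). Extracellular and bone genes had 4 of 12 members tested, with 0 up and 1 down in DDC (HAS2), and 1 up and 2 down in SLC6A4 cells. EXT1 rose by 0.47 in SLC6A4 cells, a call lost without SLC6A4 library 1, and CTHRC1, a secreted collagen triple helix protein, fell by 0.94 in SLC6A4 cells. The zinc-finger genes of the chromosome end had 0 calls of 9 in DDC against EV and 1 fall of 9 in SLC6A4 against EV, ZNF251 with -1.02 (limma adjusted p = 0.00176).

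**Figure D5:**
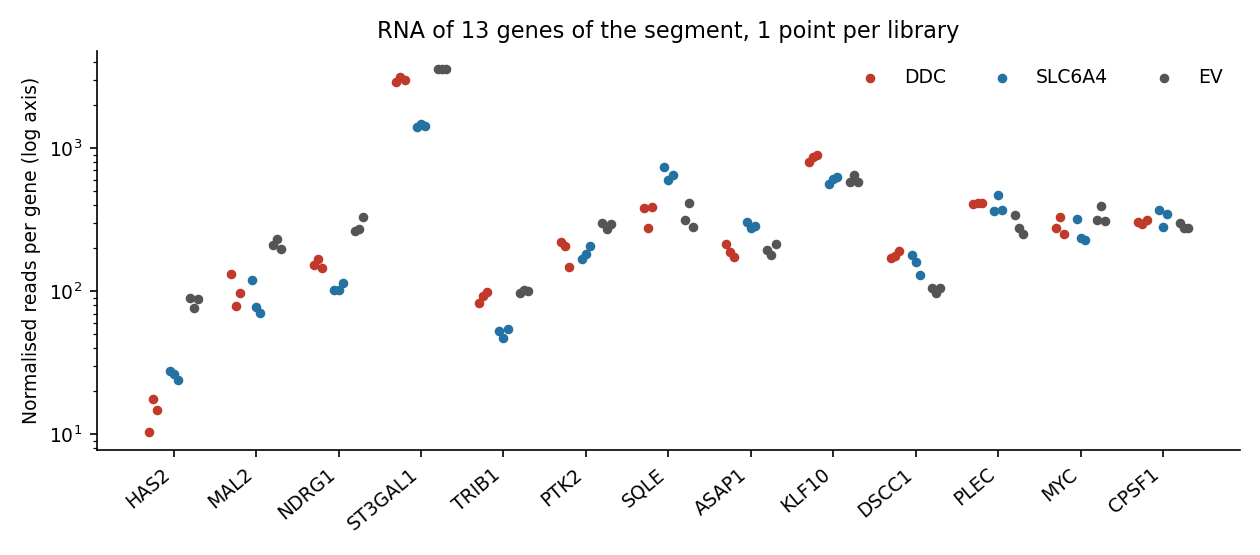
Normalised reads per gene (y axis, log scale) of 13 genes of the segment; each point is 1 of the 9 RNA libraries, coloured by line. HAS2 has 10.4 to 17.6 in DDC cells and 76.2 to 89.5 in EV cells, ST3GAL1 has 1409 to 1466 in SLC6A4 cells, below both other lines, and the lines overlap for MYC and CPSF1.

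Mark and RNA were set side by side for genes with a member region at their promoter. In DDC against EV, 14 genes had a called H3K4me3Q5ser promoter and a called RNA. Both went the same way in 12 of them, while MFSD3 and POLR2K went opposite ways, RNA calls that were both lost without EV library 1 or EV library 2. In SLC6A4 against EV there were 36, of which 21 had the same direction and 15 the opposite. In DDC against SLC6A4 there were 25, of which 8 had the same direction and 17 the opposite. For H3K4me3 the same direction was found in 7 of 10, 16 of 28 and 6 of 25 genes. HAS2 fell in both measures in each line, and SQLE rose in both in SLC6A4 cells. ST3GAL1, TRIB1, MYC and ATAD2 are among the genes whose promoter H3K4me3Q5ser and RNA went opposite ways in SLC6A4 cells: the H3K4me3Q5ser change was 0.50 at ST3GAL1, 0.34 at TRIB1 and -0.23 at ATAD2. With the GC trend taken out it was 0.15, 0.02 and -0.22. These counts come from called genes alone, and the comparisons share libraries. Their mark changes were taken with the GC trend left in. Over all comparisons 56 of 429 called values of named regions turned in sign with that trend taken out. The direction counts were not repeated with the GC trend taken out, so they cannot be read apart from GC content. The same counts were not made over all genes, so they cannot be read as particular to the segment. In SLC6A4 against EV all 36 genes with a called RNA had a called H3K4me3Q5ser promoter, where 82.5% of all regions were called. Of the segment's coding promoters 92.2% were called, so this is near their own share. For a gene with several promoter regions the region with the smallest adjusted p was taken, and neighbouring genes can share a region. HAS2 and HAS2-AS1, whose reads cannot be told apart, are each counted in both lines against EV for H3K4me3Q5ser.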

How the data were processed

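Read pairs of 24 ChIP and input libraries were counted by the authors over the H3K4me3Q5ser regions with featureCounts 2.0.3, per the file headers, and deposited as estimated counts, since 9.78% of the values are not whole. They were rounded to whole numbers for the tests. The submitters' processing notes name GRCh38, HISAT2 2.1.0, Bowtie2, MACS2, HOMER and DESeq2, with no further versions. The peak regions were deposited by the authors as combined lists, so density outside them was not analysed. RNA values were deposited by the authors as a normalised signal per gene. They are whole reads divided by a size factor for nearly all genes (100% of values when rounded, in each library, tolerance 1e-06), and those reads were used in alternatives. The edgeR count test on them called 2312 genes in DDC against EV, 2594 in SLC6A4 against EV and 1749 in DDC against SLC6A4, of which 35, 48 and 32 are in the segment. CUT&Tag values were deposited by the authors as CPM per peak.

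Relative density is pairs per base pair over the members divided by that over the regions of other autosomes in the same library, compared by exact permutation or sign-flip tests over samples. ChIP tests used edgeR 4.0.16 (quasi-likelihood, TMM, filterByExpr) over the whole table. RNA was tested with limma 3.58.1 on log2(value + 1), for genes at 10 or more in 3 or more libraries. Both used Benjamini-Hochberg adjustment at 0.05. A fold change on that scale understates the change of low genes. Genes came from GENCODE 44, to which 62625 of 62703 gene IDs matched. TPM was computed from the recovered reads and exonic length. Analyses ran in R 4.3.3 and Python 3.11.15.

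Named regions were up to 5 called up and 5 down per comparison by adjusted p, the 6 highest and 3 lowest in EV cells, and regions at the starts of named genes. Named genes were MYC, CPSF1, up to 8 up and 8 down per comparison by size with groups apart, and up to 3 per list. The members and the lists were chosen with earlier results of these data known. Alternatives were DESeq2 1.42.0, library size alone, the replicate block, other filters and pseudocounts, each library left out, input in the fit, the GC trend taken out, and libraries within counting noise summed. The last 2, counting every library in the density tests, the line contrasts of both marks' density and the input comparison by region were chosen after seeing the data. Some cell type markers are not reported here. Tests were tried on simulated data with known changes before use. Strand use in counting is not given in the sources used here, so overlapping and antisense genes, such as HAS2 with HAS2-AS1, cannot be told apart.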

Additional observations from a re-analysis of the deposited data

Results flagged for a closer look

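The difference between lines itself differed between the marks, tested as an interaction in edgeR. H3K4me3Q5ser relative to H3K4me3 changed at 68 of 280 member regions in DDC against EV cells (15% of all regions) and at 100 of 280 in SLC6A4 against EV cells (29.2% of all regions). In RNA, the effects of the constructs differed from each other at 34 member genes, tested directly in limma as DDC against SLC6A4 (19.2%, against 13.2% of all genes tested).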

How the results depend on the processing

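Of the summary results under the alternatives, 226 values kept their direction and side of the threshold or stayed within 1.5 times of the count. Part of this was fixed in advance. The density contrasts between lines could not reach 0.05 with these numbers of samples, so only their sign could change. With the median over regions in place of the sum, the H3K4me3Q5ser density differed by -0.021 (log2) in SLC6A4 against EV and by 0.12 in DDC against SLC6A4, both turned in sign. Counting every input library gave an input density of 0.62 (log2). The H3K4me3 density against input ranged from -0.21 to -0.20 with each replicate left out. Without replicate 1 its exact permutation p was 0.1, the smallest that the samples then left allow, with the value at -0.20. Member regions called in DDC against EV fell to 16 for H3K4me3Q5ser and 6 for H3K4me3 relative to input, and to 27 for H3K4me3 with DESeq2. For H3K4me3 in DDC against SLC6A4 115 were called with the GC trend taken out. Leaving out 1 library at a time gave 38 to 50 regions for H3K4me3 and 14 to 24 for input, and 20 to 33 genes for RNA, all in DDC against EV. Relative to input the SLC6A4 comparisons were not run.

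Over all comparisons, 56 of 429 called values of named regions turned in sign with the GC trend taken out, 24 of 84 relative to input and 0 of 429 with libraries summed; the MRPL13 and RAD21 promoters were among the first (H3K4me3Q5ser in SLC6A4 against EV, 0.50 and 0.47). Among genes, and among regions in the comparison by whose adjusted p they were named, the values that turned were CPSF1 RNA in DDC against EV with the GC trend taken out (-0.0068), and relative to input the regions starting at 106725873 (H3K4me3Q5ser, 0.0067) and 117998841 (H3K4me3, 0.014) in DDC against EV. With the GC trend taken out, H3K4me3Q5ser turned at 108439706 in SLC6A4 against EV (0.054), and at 116751248 (-0.14) and 120438070 (-0.058) in DDC against SLC6A4. The cause was not tested. Of the other values of these genes and regions, 874 were on the same side and 166 lost their call.

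Libraries with the same replicate number did not deviate together (r of -0.12 to 0.108 over 42 ChIP pairs and -0.0435 to 0.0135 over 9 RNA pairs). With the replicate block, called members in DDC against EV, SLC6A4 against EV and DDC against SLC6A4 were 168, 239 and 225 for H3K4me3Q5ser, 61, 200 and 192 for H3K4me3, and 32, 48 and 32 for RNA. They were 67 and 100 for the interactions and 23 for input.

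Input is the shallowest assay and limits what can be read relative to it. Intervals and tests on ChIP cover little beyond counting error.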

Other observations

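Single libraries of H3K4me3 CUT&Tag were deposited for SLC6A4 cells, SLC6A4 cells with shTGM2, and EV cells, with no replicates and no test. The table covers the H3K4me3 peaks that the authors list as not raised, 238 of them in the segment. CPM per kb over these peaks, relative to the other autosomes, was 1.71 in SLC6A4 cells, 1.68 in SLC6A4 cells with shTGM2 and 1.71 in EV cells. Here the end of the chromosome was the denser part, with 2.5, 2.49 and 2.47 beyond 140 Mb, against 1.3, 1.25 and 1.3 from 100 to 140 Mb, in the same order of libraries. In ChIP-seq of H3K4me3 over the H3K4me3Q5ser regions the end was the least dense window. The median log2 ratio of SLC6A4 over EV was 0.10 in the segment and 0.10 on the other autosomes. Peaks listed as raised are left out of both medians, so these medians cannot show the whole difference between the lines.

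The segment held 280 of 19535 H3K4me3Q5ser peaks (1.43%), 450 of 26514 H3K4me3 peaks (1.7%) and 23 of the 2163 CUT&Tag peaks listed as raised (1.06%).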
